A study of Mus musculus with 6 samples.

Results

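The enzymes of glycolysis and gluconeogenesis, with the lactate carriers and the kinases that gate pyruvate entry into mitochondria, were examined in kidneys of young mice lacking the transferrin receptor in the nephron lineage. The 34 genes were chosen by name from pathway knowledge, from the hexokinases to lactate export together with the fructose bisphosphatases, glucose 6-phosphatase and pyruvate carboxylase. The choice rule used none of their measured values, but the list was drawn up with earlier results of these data known. They are 34 of the 24422 genes in the count table, and all 34 were found in it. The rule left out Pck1, which encodes the cytosolic phosphoenolpyruvate carboxykinase of gluconeogenesis.

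Glycolysis splits glucose into pyruvate in the cytosol with a net gain of ATP, and lactate dehydrogenase regenerates the NAD that this needs when pyruvate is not oxidised in mitochondria. Gluconeogenesis runs most of these steps backwards and bypasses the irreversible ones with enzymes of its own. In the kidney, the proximal tubule is the site of gluconeogenesis and relies on oxidation of fatty acids and other fuels, whereas distal and medullary segments use more glucose. Several steps are shared by isozymes from separate genes that differ in affinity, regulation and tissue, and many glycolytic genes are known targets of the hypoxia-inducible factors, transcription factors whose degradation is started by iron-dependent hydroxylases.

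Poly-A RNA was measured in 6 whole kidneys of C57BL/6 mice at postnatal day 13, all on an iron-sufficient diet with 220 ppm iron. The 3 Control libraries carry the genotype wild type on their labels, and the 3 TfR1 knockout libraries carry Tfr1f/f;SixCre. In the knockouts, the floxed Tfrc gene, which encodes the transferrin receptor TfR1, was recombined by Six2Cre, a Cre line driven in the progenitors of the nephron tubules, so that the collecting duct, stroma, vessels and immune cells were not targeted. By the study's account, cells that had escaped deletion were widespread in proximal tubules and thick ascending limbs at this age, so the knockout kidneys held a mixture of cells with and without TfR1. The study describes the controls as littermates, but which kidneys shared a litter was not given in the labels used here. In whole tissue, fewer cells of a type and less RNA per cell cannot be told apart, and transcripts say nothing of enzyme amount or flux.

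Total counts ran from 16591156 to 22898008 per library. Tfrc itself had 5534, 6485 and 3667 normalized counts in the Control libraries (replicates 1 to 3) and 6976, 4046 and 5898 in the knockouts (log2 fold change 0.11, SE 0.29, DESeq2 adjusted p = 0.853), and its sign changed without TfR1 knockout replicate 1 (-0.072) and without Control replicate 3 (-0.095). The gene count does not separate recombined transcripts, so Tfrc did not check the group labels. Among 12114 genes that averaged 100 normalized counts or more, 263 stood at least 2-fold above and 357 at least 2-fold below both other Control libraries in Control replicate 3, and TfR1 knockout replicate 2 stood 2-fold above both other knockouts for 194 and below both for 365. TfR1 knockout replicate 1 stood that far above both for 214 and below both for 52, and the other 3 libraries for at most 34 and 45. Xist, the RNA of the inactive X chromosome, exceeded 10000 normalized counts in 2 Control libraries (replicates 1 and 3) and in TfR1 knockout replicate 2, and reached at most 1031 in the other 3 libraries, so both groups were mixed. Replicate 2 was the only knockout with high Xist, so among the knockouts its deviations cannot be told apart from differences that go with Xist. Summed normalized counts of proximal tubule markers ran from 122851 to 311547 in Control and from 62850 to 96330 in knockout kidneys (4 of 11 markers lower, 1 higher), and those of thick ascending limb markers from 49130 to 97640 and from 14132 to 26284 (5 of 6 lower). All 3 distal convoluted tubule markers were lower (11272 to 22529 against 736 to 1783). Principal cell markers were summed at 8202 to 17359 against 33526 to 61657 (3 of 6 higher), and macrophage markers at 2805 to 4724 against 7700 to 9898 (6 of 10 higher). The part of these cell type shifts in the results on the enzymes was not tested.

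To show the regulatory sequence of the genes with the largest called changes, the 250 bases upstream of the transcription start of the 4 members that rose at least 2-fold and of the 1 that fell are printed from RefSeq (GRCm38.p6), 5′ to 3′ on the strand of the gene. Capitals mark ACGTG or GCGTG, the core letters of the hypoxia response element, on either strand, where CACGT and CACGC are the reverse complements.
Hk2 (chr6:82774455-82774704, minus strand): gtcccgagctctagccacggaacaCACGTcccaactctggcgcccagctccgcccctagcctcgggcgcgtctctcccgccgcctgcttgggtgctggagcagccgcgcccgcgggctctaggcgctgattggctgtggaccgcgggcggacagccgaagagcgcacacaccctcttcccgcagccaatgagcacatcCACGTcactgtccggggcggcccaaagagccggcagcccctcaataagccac
Pfkp (chr13:6648772-6649021, minus strand): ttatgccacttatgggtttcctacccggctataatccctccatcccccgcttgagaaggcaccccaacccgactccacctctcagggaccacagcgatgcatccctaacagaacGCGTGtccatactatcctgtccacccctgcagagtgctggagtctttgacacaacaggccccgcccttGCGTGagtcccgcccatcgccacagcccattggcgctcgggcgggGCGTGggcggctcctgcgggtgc
Eno2 (chr6:124769674-124769923, minus strand): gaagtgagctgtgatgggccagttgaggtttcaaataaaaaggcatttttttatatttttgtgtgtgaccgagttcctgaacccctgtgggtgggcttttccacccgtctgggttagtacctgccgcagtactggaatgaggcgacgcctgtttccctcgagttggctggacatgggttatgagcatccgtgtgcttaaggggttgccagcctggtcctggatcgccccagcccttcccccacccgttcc
Gpi1 (chr7:34230337-34230586, minus strand): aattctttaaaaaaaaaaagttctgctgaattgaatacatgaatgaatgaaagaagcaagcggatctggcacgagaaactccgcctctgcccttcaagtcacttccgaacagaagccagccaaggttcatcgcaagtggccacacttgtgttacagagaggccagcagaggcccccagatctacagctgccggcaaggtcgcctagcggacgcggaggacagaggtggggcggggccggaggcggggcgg
Fbp2 (chr13:62858401-62858650, minus strand): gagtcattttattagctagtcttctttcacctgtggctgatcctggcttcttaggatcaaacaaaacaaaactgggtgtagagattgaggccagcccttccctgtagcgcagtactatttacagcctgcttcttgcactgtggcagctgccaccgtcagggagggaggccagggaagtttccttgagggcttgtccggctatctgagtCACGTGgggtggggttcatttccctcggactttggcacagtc
Hk2 held ACGTG at 226 and 52 bases upstream of its start, both on the strand opposite to the gene. Pfkp held GCGTG 3 times, at 136, 68 and 23 bases, all on its own strand. Eno2 and Gpi1 held neither motif in these windows, and the capitals in Fbp2, the member that fell, are 1 palindrome, CACGTG, that matches on both strands (42 and 41 bases upstream). The first listed window held a motif for 24 of the 34 members, for 6 of the 9 members that rose and for 18 of the other 25, against 52.8% of the 12375 tested genes with a window and 38.6% of all 32851 windows. The motif was therefore about as frequent in the other members as in those that rose, and a match is a description of letters only, since no factor binding was measured.

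The knockout kidneys were set against the Controls to learn which of these transcripts changed after the receptor was removed from the nephron lineage. Of the 34 members, 33 had enough counts for a test. At a DESeq2 adjusted p under 0.05, 9 members rose (Hk2, Gpi1, Pfkp, Aldoa, Gapdh, Pgk1, Eno2, Ldha and Slc16a1), 1 fell (Fbp2) and 23 did not pass. Over the 16509 genes tested, 14.9% were called, 7.74% higher and 7.18% lower. The rise was at least 2-fold for 4 of them (Hk2, Gpi1, Pfkp and Eno2), where 4.41% of all genes tested rose that far, and 0 members fell 2-fold in DESeq2 or edgeR, against 4.46% of all genes in DESeq2 and 2.31% in edgeR. edgeR's quasi-likelihood test called the same 4 members higher and Fbp2 lower at an adjusted p under 0.05, where it called 6.02% of 15308 genes, 3.22% higher and 2.8% lower. In DESeq2, 13 members were higher and 1 lower at an unadjusted p under 0.05, where 13.8% of all genes tested were higher and 13.5% lower.

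**Figure D1:**
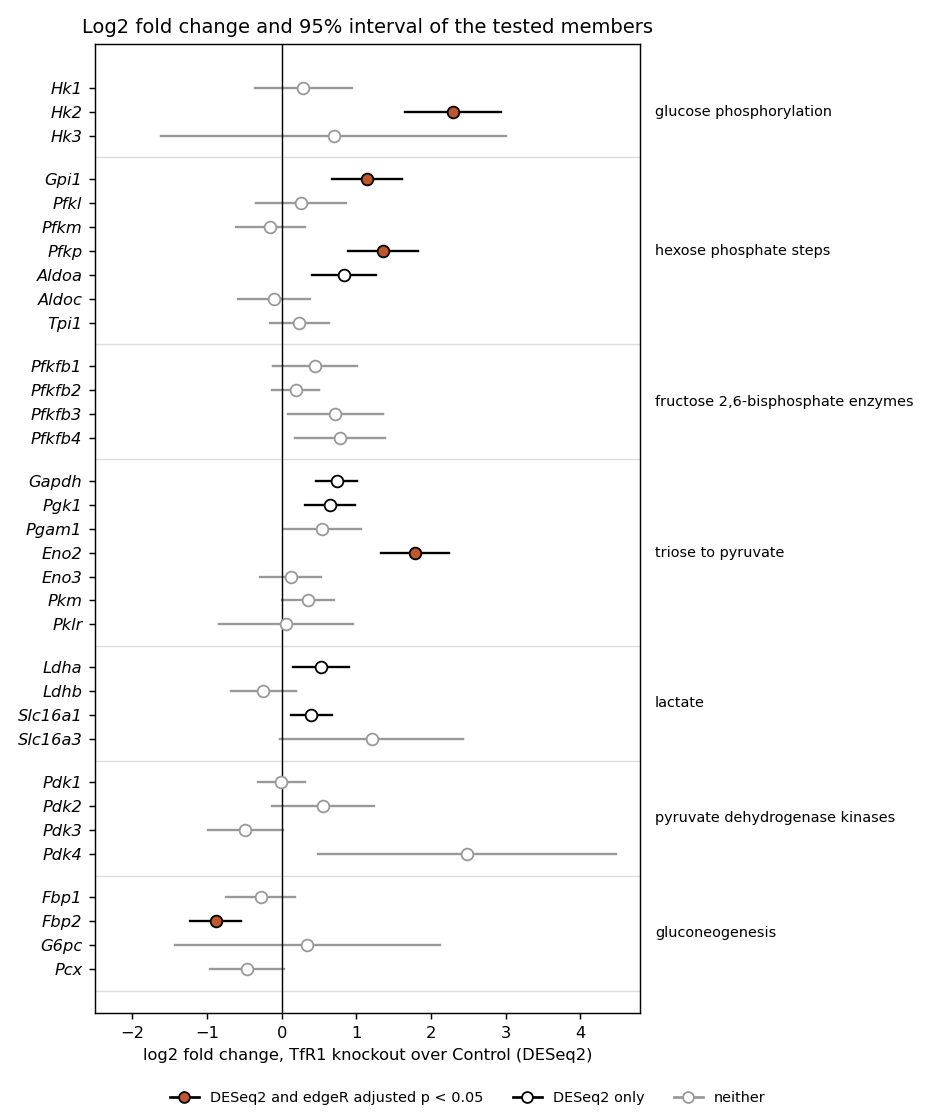
Log2 fold change of TfR1 knockout over Control (horizontal axis) for the 33 tested members, grouped by role, with points for the DESeq2 estimate and lines for its 95% interval; filled points passed an adjusted p of 0.05 in DESeq2 and edgeR, open black points in DESeq2 only, and grey points in neither. Hk2, Eno2, Pfkp and Gpi1 lie above 1, Fbp2 is the only called member below 0, and the widest intervals belong to Hk3, Pdk4 and G6pc.

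As a whole the list, which was chosen with earlier results known, leaned upwards, and no test of the list was run. The log2 fold change was positive for 25 of the 33 tested members, with a median of 0.40, against 50.7% positive and a median of 0.0071 over all genes tested. All 3 knockout values lay above all 3 Control values for 14 members and below for 1. Of all genes tested 33.7% were separated in this way, 16.9% in each direction. The plot of fold changes by role shows where the called members sat along the pathway. By role, DESeq2 called higher 1 of 3 hexokinases and 3 of 7 enzymes from glucose 6-phosphate to the triose phosphates. It also called higher 3 of 7 tested enzymes from there to pyruvate and 2 of 4 lactate genes. edgeR called 1, 2, 1 and 0 genes of these roles higher, in the same order. Of the fructose 2,6-bisphosphate enzymes 0 of 4, and of the pyruvate dehydrogenase kinases 0 of 4, passed in either direction with DESeq2 or edgeR. At an unadjusted p under 0.05, both tools passed 2 of the 4 fructose 2,6-bisphosphate enzymes and 1 of the 4 kinases, all higher, where edgeR passed 12.8% of its genes higher and 13.0% lower. With 4 genes in each list these counts are too small to read against the background.

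The hexokinases trap glucose in the cell as glucose 6-phosphate. Hk2 (chromosome 6, 82675019 to 82724448, mm9), the isozyme typical of muscle, fat and fast-growing cells, had 188.0, 170.0 and 156.1 normalized counts in the Control libraries (replicates 1 to 3, in this order throughout) and 1242, 546.3 and 735.0 in the knockouts. Every knockout library was well above every Control library, and the spread was wider among the knockouts. Its log2 fold change of 2.30 (SE 0.33, 4.91-fold, DESeq2 adjusted p = 2.76e-10, edgeR adjusted p = 0.0108) stayed between 1.90 and 2.53 when any library was left out. Hk1, the housekeeping hexokinase, overlapped between groups (2132 to 4943 against 3873 to 5764 normalized counts, DESeq2 adjusted p = 0.615). Hk3, a low-level isozyme found in blood cells, ran from 7.27 to 22.6 normalized counts in Control and from 0 to 44.8 in knockout libraries (DESeq2 adjusted p = 0.754).

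Per kilobase of transcript, a scale that allows levels to be compared between genes, Hk1 remained the most abundant hexokinase in every library. Hk1 had 902 ± 353 normalized counts per kilobase in Control kidneys (SD, n = 3), Hk2 31.1 ± 2.90 and Hk3 3.86 ± 2.74. Of the counts per kilobase of Hk1, Hk2 and Hk3 together, Hk2 made up 3.13%, 2.59% and 5.30% in the Control libraries and 14.2%, 9.87% and 11.1% in the knockouts. Its share was higher in every knockout than in every Control library, and an exact two-sided permutation test gave p = 0.1, the smallest that 3 against 3 allows. Hkdc1, a further hexokinase gene outside the members, was not in these shares (105.5 to 160.0 normalized counts in Control and 51.18 to 115.4 in knockouts, DESeq2 adjusted p = 0.133).

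Gpi1 (chromosome 7, 34987141 to 35015308) interconverts glucose 6-phosphate and fructose 6-phosphate. It had 10323, 11340 and 7128 normalized counts in Control libraries and 23982, 17291 and 22147 in the knockouts. The groups were well separated, with Control replicate 3 lowest and TfR1 knockout replicate 2 nearest to the Control libraries. Gpi1 rose by 1.14 on the log2 scale (SE 0.24, DESeq2 adjusted p = 7.02e-05, edgeR adjusted p = 0.0398), with values of 0.96 to 1.27 when 1 library was left out.

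Phosphofructokinase 1 commits the sugar to glycolysis and has liver, muscle and platelet isozymes. Of the 3 genes only the platelet form Pfkp (chromosome 13, 6579014 to 6648023) passed the test. It had 1742, 1885 and 1168 normalized counts in Control libraries and 4709, 3634 and 3922 in knockouts. No library overlapped, and the lowest knockout value was above the highest Control value by far more than the Control spread. Pfkp rose by 1.35 on the log2 scale (SE 0.24, DESeq2 adjusted p = 7.39e-07, edgeR adjusted p = 0.0166). Pfkl, the liver form, ran from 2734 to 3337 in Control and from 2160 to 4908 in knockout libraries (log2 fold change 0.25, DESeq2 adjusted p = 0.64). Pfkm, the muscle form, ran from 1206 to 1961 and from 1285 to 1653 (-0.15, DESeq2 adjusted p = 0.731).

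In Control kidneys Pfkp was the least abundant of the 3 phosphofructokinases per kilobase (386 ± 91.6, against 567 ± 135 for Pfkm and 831 ± 86.3 for Pfkl), and in knockout kidneys it stood at 986 ± 134, beside 991 ± 376 for Pfkl and 511 ± 63.9 for Pfkm. On this scale Pfkp and Pfkl did not differ beyond their spread in the knockouts. The exons of Pfkp together cover 9395 bases, against 4145 for its longest coding transcript, the length used here. For Pfkl these lengths were 4395 and 3730, and for Pfkm 3051 and 2880. The level of Pfkp beside the other forms, and the size of its share, therefore depend on the length chosen. The Pfkp share of the family was 22.3%, 22.4% and 19.7% in Control libraries and 37.5%, 46.1% and 37.3% in knockouts (exact permutation p = 0.1). The Pfkm share went from 31.5% ± 2.18 to 20.9% ± 2.32 (SD, n = 3 each, exact permutation p = 0.1). The Pfkl share went from 47.0% ± 3.67 to 38.8% ± 7.26 (exact permutation p = 0.1). Shares of a family add up to its whole, so a higher Pfkp share by itself lowers the others.

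**Figure D2:**
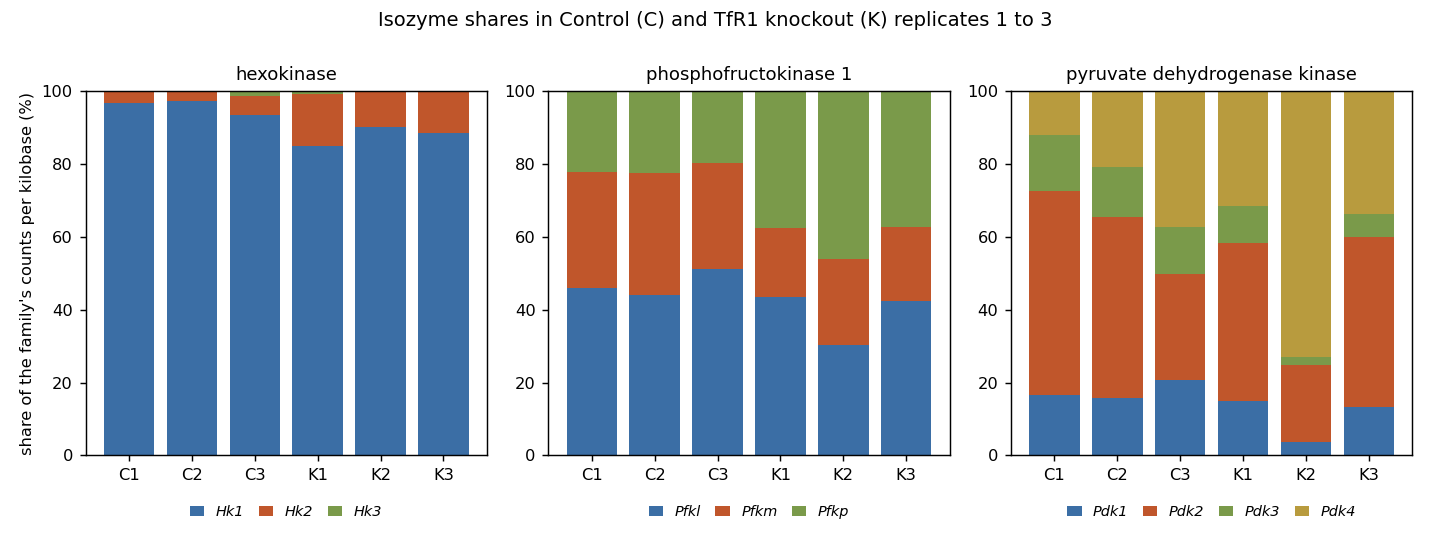
Share of each isozyme in its family's normalized counts per kilobase (vertical axis, percent) in Control (C) and TfR1 knockout (K) replicates 1 to 3, for hexokinases, phosphofructokinases 1 and pyruvate dehydrogenase kinases. The Hk2 and Pfkp shares were higher in all 3 knockout libraries than in any Control library, whereas the Pdk4 share overlapped between the groups and reached 73.1% in TfR1 knockout replicate 2.

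The fructose 2,6-bisphosphate enzymes make and remove the strongest allosteric activator of phosphofructokinase 1. None of the 4 genes passed the DESeq2 threshold. Pfkfb4 was nearest, with 163.3, 173.6 and 144.2 normalized counts in Control and 383.9, 194.5 and 249.7 in knockout libraries. These groups did not overlap, although TfR1 knockout replicate 2 was only slightly above the Control values (log2 fold change 0.78, SE 0.31, DESeq2 adjusted p = 0.0645), and without it the gene was called. Pfkfb2 was also separated, with 1055, 1105 and 1024 against 1132, 1365 and 1133 (log2 fold change 0.19, DESeq2 adjusted p = 0.471). Pfkfb3, the isozyme with the strongest kinase bias, ran from 793 to 1696 and from 1666 to 2517 (0.72, SE 0.33, DESeq2 adjusted p = 0.124), and Pfkfb1, the liver form, from 72.7 to 87.2 and from 86.1 to 125 (0.45, DESeq2 adjusted p = 0.311).

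Aldolase splits fructose 1,6-bisphosphate into the triose phosphates. Aldoa (chromosome 7, 133938748 to 133944265), the general form, had 15882, 16896 and 11070 normalized counts in Control and 29111, 23984 and 25199 in knockout libraries. All knockout values were above all Control values. Aldoa rose by 0.84 on the log2 scale (SE 0.22, DESeq2 adjusted p = 0.00189), and edgeR's adjusted p was 0.0753. Aldoc, the brain form, overlapped (234 to 357 against 268 to 317, DESeq2 adjusted p = 0.831), so that the log2 ratio of Aldoc to Aldoa within a library was -5.48, -5.56 and -5.56 in Control and -6.52, -6.33 and -6.55 in knockouts. Tpi1, which interconverts the triose phosphates, ran from 10592 to 13014 and from 11269 to 16490 (log2 fold change 0.24, DESeq2 adjusted p = 0.472).

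**Figure D3:**
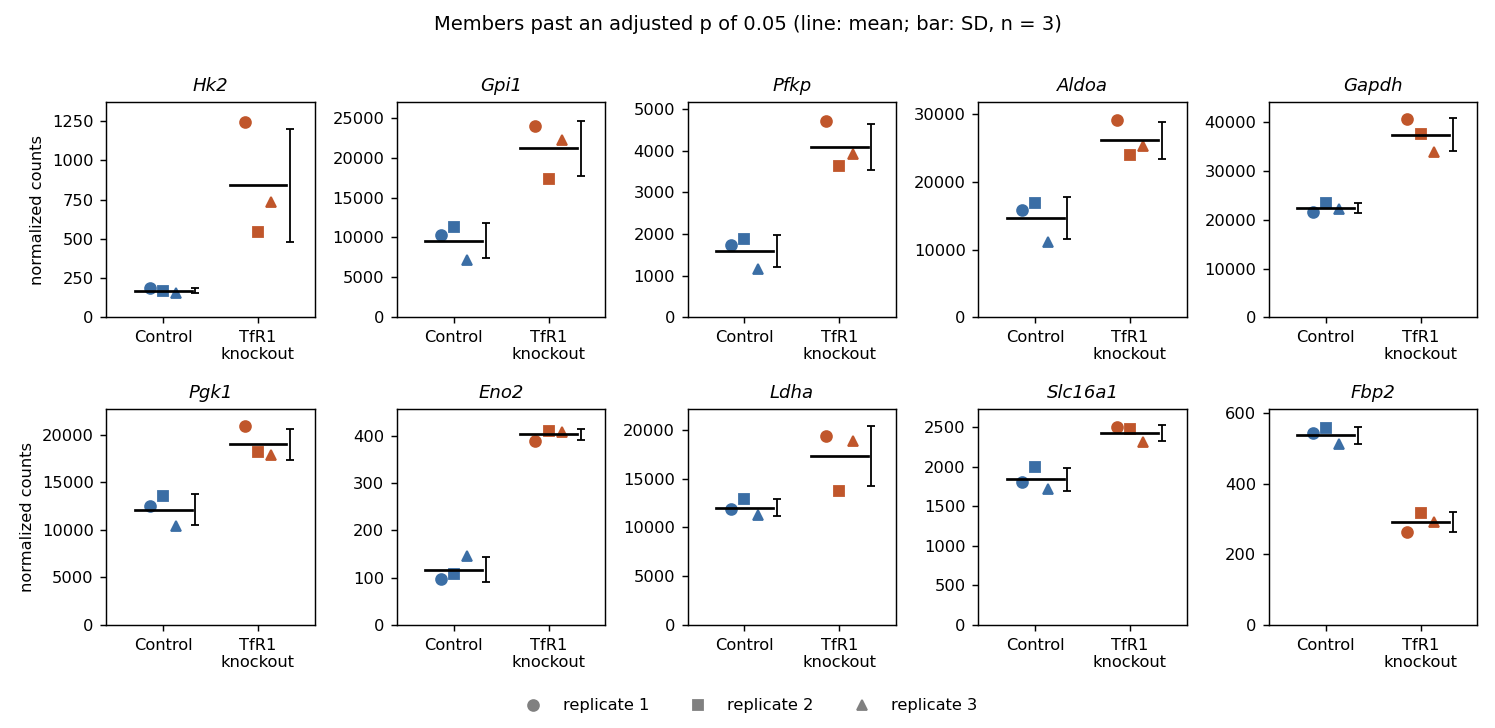
Normalized counts (vertical axes, starting at 0) of the 10 members past a DESeq2 adjusted p of 0.05 in 3 Control and 3 TfR1 knockout libraries, with symbols for the replicate number, lines for the mean and bars for the SD (n = 3). The groups are separated in all 10 panels, by the widest relative margin in Hk2 and Eno2 and by the narrowest in Ldha, where TfR1 knockout replicate 2 (13750) is close to Control replicate 2 (12948).

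From glyceraldehyde 3-phosphate to pyruvate, Gapdh carries the oxidative step and Pgk1 the first that makes ATP. Gapdh (chromosome 6, 125111871 to 125116485) had 21551, 23375 and 22212 normalized counts in Control and 40577, 37530 and 33886 in knockout libraries. Its Control libraries were tightly grouped and its knockout libraries all higher (log2 fold change 0.74, SE 0.14, DESeq2 adjusted p = 8.11e-06, edgeR adjusted p = 0.0705). Pgk1 (chromosome X, 103382439 to 103399038) had 12490, 13547 and 10405 against 20899, 18169 and 17916. These too were separated (log2 fold change 0.64, SE 0.17, DESeq2 adjusted p = 0.00286, edgeR adjusted p = 0.0894), but the call was lost without Control replicate 1. Gapdh is often used to scale expression measurements, and here it differed between the groups by 1.67-fold.

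Pgam1, which moves the phosphate of phosphoglycerate, had 7535, 7684 and 4553 normalized counts in Control and 10857, 7858 and 10167 in knockout libraries. The groups were separated only narrowly, by TfR1 knockout replicate 2, and the difference did not pass (log2 fold change 0.55, SE 0.26, DESeq2 adjusted p = 0.148). Pkm, the pyruvate kinase of most tissues, had 13899, 15001 and 13772 against 21126, 15117 and 18188 (0.35, SE 0.18, DESeq2 adjusted p = 0.185) and was called only without TfR1 knockout replicate 2. Pklr, the liver and red cell pyruvate kinase, ran from 382 to 582 and from 242 to 930, with TfR1 knockout replicate 1 highest and replicate 2 lowest of all libraries (DESeq2 adjusted p = 0.957).

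Enolase makes phosphoenolpyruvate and exists as alpha, beta and gamma subunits. Eno2 (chromosome 6, 124710071 to 124719691), the gamma subunit best known from neurons and neuroendocrine cells, had 96.5, 108.2 and 146.4 normalized counts in Control and 389.8, 410.7 and 408.7 in knockout libraries. The knockout libraries lay close together and far above the Controls. Eno2 rose by 1.79 on the log2 scale (SE 0.23, DESeq2 adjusted p = 1.97e-12, edgeR adjusted p = 0.00694), between 1.66 and 1.98 when any library was left out. Of 6 neuron markers, Uchl1 and Nefl rose in DESeq2 and the other 4 did not pass, with log2 fold changes of -2.05 for Snap25, -1.53 for Tubb3, -1.13 for Syp and 0.10 for Stmn2. The median of the list was -0.51, and Syp was lower in every knockout library. The summed level of the list, to which Uchl1 gave the most, was 443 to 741 normalized counts in Control and 782 to 1193 in knockout kidneys. Its part in the Eno2 result was not tested.

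Eno3, the muscle subunit, did not pass (245 to 288 against 251 to 333, DESeq2 adjusted p = 0.763). Eno1, the general alpha subunit, reached no more than 5 counts per library and was not tested. Of the 31-base words of its transcript, 77.2% occur elsewhere in the genome, and reads that align to several places were left out of the counts. The table also lists Eno1b, named here after its values were seen, with 5012, 5554 and 4646 normalized counts in Control and 8959, 4853 and 6215 in knockout libraries. How reads were divided between these entries was not tested. The groups of Eno1b overlapped through TfR1 knockout replicate 2 (log2 fold change 0.40, SE 0.26, DESeq2 adjusted p = 0.32).

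Repeated words were also common in abundant members, and did not go with low counts there. The share of 31-base words also found elsewhere was 94.1% for Pgam1, 94.0% for Pgk1, 85.8% for Gapdh, 64.1% for Pkm, 52.8% for Ldha, 52.5% for Ldhb, 49.3% for Gpi1, 40.4% for Aldoa and 38.9% for Tpi1. Their levels are uncertain for this reason. How many of their reads were left out was not tested, since a read longer than such a word can still align uniquely. The share was 0.6% for Hk2, 0.4% for Pfkp, 2.5% for Eno2 and 0.0% for Fbp2 and Slc16a1, the members with little or no such overlap among those called.

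Lactate dehydrogenase and the monocarboxylate carriers form and move lactate. Ldha (chromosome 7, 54096845 to 54110997), the muscle subunit, had 11899, 12948 and 11246 normalized counts in Control and 19330, 13750 and 18826 in knockout libraries. TfR1 knockout replicate 2 was close to the Control values, and the other knockouts were clearly higher. Ldha rose by 0.52 on the log2 scale (SE 0.19, DESeq2 adjusted p = 0.0457, edgeR adjusted p = 0.162), and of the 6 fits that left out 1 library the call held only in the one without that library. Ldhb, the heart subunit, overlapped (20431 to 26904 against 15326 to 23111, log2 fold change -0.25, DESeq2 adjusted p = 0.501). The ratio of Ldha to Ldhb counts within a library was 0.497, 0.481 and 0.550 in Control and 0.894, 0.595 and 1.23 in knockouts, so it was higher in every knockout (exact permutation p = 0.1, the smallest possible).

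Slc16a1 (chromosome 3, 104442591 to 104462385) encodes the widespread lactate carrier MCT1. It had 1802, 1999 and 1718 normalized counts in Control and 2499, 2469 and 2306 in knockout libraries. The groups were separated by a small margin (log2 fold change 0.40, SE 0.14, DESeq2 adjusted p = 0.0387, edgeR adjusted p = 0.103), and the call was lost whichever library was left out. Slc16a3, the lactate exporter MCT4 of glycolytic cells, had 167.4, 110.0 and 186.2 against 568.8, 61.4 and 436.1. Here TfR1 knockout replicate 2 was the lowest of all 6 libraries and the other knockouts the highest (log2 fold change 1.20, SE 0.63, DESeq2 adjusted p = 0.192), and without that library Slc16a3 was called higher with a log2 fold change of 1.71.

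Pyruvate dehydrogenase kinases switch off the entry of pyruvate into the citric acid cycle. Pdk4, the form raised by fasting and fatty acid use, had 1036, 2102 and 2680 normalized counts in Control and 3434, 25171 and 3895 in knockout libraries. All knockout values were above the Controls, but TfR1 knockout replicate 2 was 6.46-fold above the next knockout, the seventh largest such gap among the 12114 genes. The log2 fold change of 2.48 (SE 1.02) did not pass (DESeq2 adjusted p = 0.0816) and was 0.92 without that library. Without TfR1 knockout replicate 1 it was called, so the estimate rests on single libraries.

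Pdk1, often listed among hypoxia-responsive genes, differed little between the groups (1933 to 2391 against 2071 to 2334 in Control, log2 fold change -0.0026, 95% interval -0.32 to 0.31, DESeq2 adjusted p = 0.994). Pdk2 ran from 1343 to 3211 in Control and from 3041 to 4651 in knockout libraries (0.55, SE 0.35, DESeq2 adjusted p = 0.306). Pdk3 ran from 571 to 829 and from 442 to 664 (-0.49, SE 0.26, DESeq2 adjusted p = 0.207) and was called lower only without TfR1 knockout replicate 1.

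**Figure D4:**
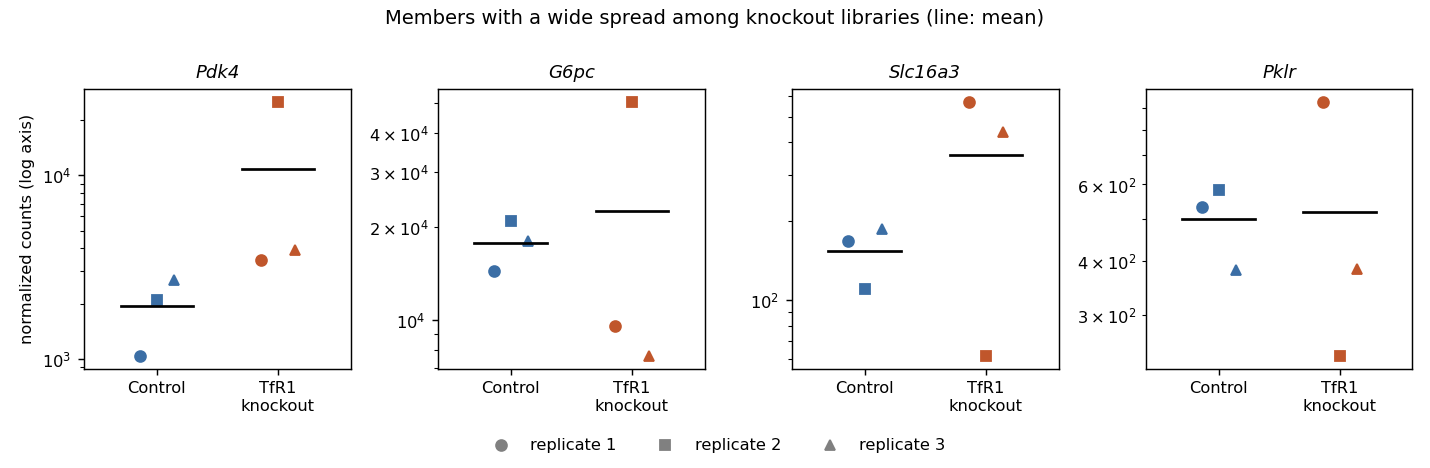
Normalized counts (vertical log axes) of Pdk4, G6pc, Slc16a3 and Pklr in 3 Control and 3 TfR1 knockout libraries, with symbols for the replicate number and lines for the group mean. TfR1 knockout replicate 2 (square) is the highest library for Pdk4 (25171) and G6pc (50319) and the lowest for Slc16a3 (61.4) and Pklr (242).

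On the gluconeogenic side, 1 of the 4 members fell and 3 did not pass. Fbp2 (chromosome 13, 62938244 to 62959760), the muscle fructose bisphosphatase, had 542.5, 559.0 and 511.3 normalized counts in Control and 264.5, 318.6 and 292.3 in knockout libraries. The groups were tight and far apart. The log2 fold change was -0.88 (SE 0.17, DESeq2 adjusted p = 1.39e-05, edgeR adjusted p = 0.0201), and it stayed between -0.95 and -0.82 whichever library was left out. Skeletal muscle markers were low in both groups (the 8 markers summed to 59.4 to 167 and 62.7 to 206 normalized counts). DESeq2 called 0 of the 5 it tested, with 0 at an unadjusted p under 0.05, and edgeR called 0 of the 3 it tested. The part of muscle content in the Fbp2 result was not tested. Fbp1, the liver and kidney form, was far more abundant per kilobase (8451 ± 1752 against 406 ± 18.3 for Fbp2 in Control kidneys) and did not pass (9516 to 14171 against 8733 to 12382 normalized counts, log2 fold change -0.28, DESeq2 adjusted p = 0.465).

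G6pc, the glucose 6-phosphatase that releases free glucose, had 14404, 20812 and 17999 normalized counts in Control and 9548, 50319 and 7676 in knockout libraries. A pair of knockouts lay below all Controls and TfR1 knockout replicate 2 far above, 5.27-fold over the next knockout. With all libraries the log2 fold change was 0.34 (SE 0.90, DESeq2 adjusted p = 0.849), and without that library it turned to -1.04 (DESeq2 adjusted p = 0.000173), a 2-fold fall. The direction of G6pc therefore depends on that single library.

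Pcx, the pyruvate carboxylase that feeds oxaloacetate into gluconeogenesis, ran from 6345 to 11199 and from 6470 to 7556 (change of -0.47 on the log2 scale, SE 0.25, DESeq2 adjusted p = 0.22) and was called lower only without Control replicate 3. Pck1, which the rule left out, rose beside these members, with 27010, 33371 and 19947 normalized counts in Control and 88960, 171509 and 88676 in knockout libraries (log2 fold change 2.12, SE 0.33, DESeq2 adjusted p = 6.86e-09, edgeR adjusted p = 0.0238). The gluconeogenic genes thus did not move in 1 direction, and the lower summed level of proximal tubule markers given above stands beside all of them.

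Ratios of 2 genes in the same library do not depend on how libraries are scaled. Of 15 ratios computed, 4 were higher in every knockout than in every Control library (Hk2 to Hk1, Pfkp to Pfkl, Eno2 to Eno1 and Ldha to Ldhb), 1 was lower (Aldoc to Aldoa) and 10 overlapped. The log2 difference between the group means was 1.85 for Hk2 to Hk1, 1.20 for Pfkp to Pfkl, 0.77 for Ldha to Ldhb and -0.93 for Aldoc to Aldoa. Each gave the smallest exact two-sided permutation p for 3 against 3, 0.1, and a Benjamini-Hochberg adjusted p of 0.3 over the 15 ratios, so this design could not pass a threshold of 0.05. The ratio to Eno1 rests on at most 5 Eno1 counts, and against Eno1b, an addition made after the values were seen, the Eno2 difference was 1.45. Ratios across opposing steps, Hk2 to G6pc and Pfkl to Fbp1, overlapped between the groups through TfR1 knockout replicate 2, in which they were 0.0109 and 0.174 against 0.130 and 0.504 in replicate 1 and 0.0958 and 0.460 in replicate 3.

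Among 62 other genes of glucose transport, sugar entry, pyruvate oxidation, the pentose phosphate branch and glycogen, 59 were tested, 5 rose and 3 fell, with a median log2 fold change of 0.083. The share called, 13.6%, was close to the 14.9% of all genes tested, and the genes named here are single results. edgeR called 2 of them higher (Pgd and Pgm1) and the same 3 lower. Pgd, an NADPH-forming enzyme of the pentose phosphate branch, rose by a log2 fold change of 0.74 (SE 0.18, DESeq2 adjusted p = 0.000972), and Pgm1, a gene of the phosphoglucomutase family, by 0.74 (SE 0.17, DESeq2 adjusted p = 0.000381). Pgm2, a more abundant gene of that family, did not pass (log2 fold change 0.39, DESeq2 adjusted p = 0.217). The remaining genes that rose, Pdpr, G6pdx and Gbe1, each lost their DESeq2 calls in 5 of the 6 fits that left out 1 library.

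The genes that fell were Slc2a2, the basolateral glucose transporter GLUT2 of the proximal tubule, G6pc2, a relative of G6pc, and Pygm, the muscle glycogen phosphorylase. Slc2a2 had 2510, 2551 and 2614 normalized counts in Control and 1614, 858.5 and 978.1 in knockout libraries. Every knockout was below every Control, with the Controls closely grouped (log2 fold change -1.15, SE 0.27, DESeq2 adjusted p = 0.000391, edgeR adjusted p = 0.0364). G6pc2 had a log2 fold change of -1.78 (SE 0.42, DESeq2 adjusted p = 0.000506) and Pygm of -0.80 (SE 0.20, DESeq2 adjusted p = 0.00166), the latter lost without Control replicate 1. Slc2a1, the general glucose transporter GLUT1, overlapped between the groups (977 to 2197 against 2166 to 3879, change of 0.78 on the log2 scale, SE 0.35, DESeq2 adjusted p = 0.12).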

How the data were processed

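RNA from 3 Control and 3 TfR1 knockout kidneys was sequenced as poly-A libraries. The submitters' processing notes name CASAVA 1.8.2, Trimmomatic, TopHat2 2.0.11, HTSeq and the mm9 build. The authors deposited raw counts per gene from uniquely aligned reads, with no normalization, which lowers genes with near-identical copies. Columns were assigned to samples by their labels. Groups and replicate numbers came from the labels, whose design text calls the samples biological replicates. P-values otherwise measure only the spread between these libraries. Total counts of 16591156 to 22898008 make counting error small for abundant genes.

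The members and lists were chosen with earlier results of these data known. Following the study's tool, DESeq2 1.42.0 in R 4.3.3 (Wald test, median-ratio size factors, Benjamini-Hochberg adjustment, no covariate, independent filtering at 0.05) was fitted to all genes. It left 16509 genes, with a lowest mean of 3.51. Normalized counts are counts divided by size factors. Levels per kilobase use the longest coding transcript of GENCODE vM1. Values per library were given for members past an adjusted p of 0.05 and for members whose groups did not overlap, and 0.5 was added before ratios. Words of 31 bases were searched in the NCBIM37 genome. The alternatives were edgeR 4.0.16 (15308 genes), limma 3.58.1 with voom, other size factors and filters, a null of at most 1.5-fold, a replicate block and the omission of each library in turn. A covariate for Xist and the use of Eno1b were chosen after seeing the data. Some items of the lists are not reported here. The code was tested on simulated data.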

Additional observations from a re-analysis of the deposited data

How the results depend on the processing

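The 9 members called higher became 4 with edgeR, 5 with limma-voom and 3 against a null of at most 1.5-fold, and 6 to 11 when 1 library was left out. The 1 member called lower became 0 against that null and 1 to 2 when 1 library was left out, and 1 member was 2-fold lower without TfR1 knockout replicate 2 (G6pc), against 0. The 4 members at least 2-fold higher ranged from 3 to 5 over all settings. Other pathway genes called higher went from 5 to 2 with edgeR, 2 with limma-voom, 0 against the null and 2 to 6 without 1 library. Those called lower went from 3 to 8 with total-count size factors, 0 against the null, 6 with the replicate block and 2 to 8 without 1 library. The members' median log2 fold change ran from 0.336 to 0.462 without 1 library and was 0.295 with total-count size factors and 0.259 with the Xist covariate, under which Ldha and Slc16a1 lost their calls. The cause of these shifts was not tested, apart from the stricter null, which lowers counts by construction.

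Signs changed for 6 of 33 members. When 1 library was left out, the log2 fold change ran from -0.002 to 0.504 for Hk1, -0.679 to 1.44 for Hk3, -0.005 to 0.528 for Pfkl, -0.672 to 0.398 for Pklr, -0.065 to 0.087 for Pdk1, -1.04 to 0.76 for G6pc and -0.095 to 0.303 for Tfrc. The Xist covariate gave -0.971 for Hk3, -0.022 for Pfkl, -0.367 for Pklr and -0.098 for Tfrc. With limma-voom it was -0.408 for Hk3, -0.141 for Pklr and -0.166 for G6pc, and with total-count size factors -0.007 for Pklr. Of the 15 ratios, the log2 difference without 1 library ran from -2.04 to 0.75 for the isozyme ratio Hk3/Hk1 and from -0.257 to 1.33 for the isozyme ratio Slc16a3/Slc16a1.

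Same-numbered libraries deviated from their group means with correlations of -0.0378, 0.0548 and 0.0899 over 15303 genes, so the replicate numbers were not taken to pair them. With the replicate block, 8 members were higher, 1 lower and 4 at least 2-fold higher, with a median of 0.364, and Hk3 (-0.302), Pklr (-0.139) and G6pc (-0.208) changed sign. Pfkfb3 gained a call (0.77, DESeq2 adjusted p = 0.00574).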
